A study of Mus musculus with 10 samples.

Results

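The regulators of G protein signalling (RGS) were examined in the aorta of young and old mice through 9 genes, Rgs2, Rgs3, Rgs4, Rgs5, Rgs7, Rgs10, Rgs12, Rgs14 and Rgs16. They were picked by symbol from a table of read counts with 55453 gene symbols, which holds 21 genes of the series Rgs1 to Rgs22. The table describes whole aortae of male C57BL/6 mice, 5 young animals of 14.5 weeks and 5 old animals of 92.5 weeks, with 1 poly(A) RNA library from each mouse. No treatment or mutant allele is named for either group, all mice were killed at the same time, and the fat around the vessel was taken off before RNA was prepared. The old mice had been bought as aged animals, and females were not studied. Each comparison asked how the RNA level of a regulator differed between the old and the young aortae.

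When a G protein-coupled receptor is activated, it loads GTP onto the alpha subunit of a heterotrimeric G protein, and the signal lasts until that GTP is hydrolysed. RGS proteins bind the active alpha subunit and speed up this hydrolysis, so that they shorten the signal. In the vessel wall the receptors for angiotensin, endothelin, thrombin and noradrenaline work through such G proteins to contract smooth muscle. The proteins of the R4 subfamily (Rgs2, Rgs3, Rgs4, Rgs5 and Rgs16 here) are mostly little more than the RGS domain, those of the R7 subfamily (Rgs7) pair with the G beta subunit Gnb5 and are tethered to membranes by Rgs7bp, and those of the R12 subfamily (Rgs10, Rgs12 and Rgs14) include scaffolds that also bind Ras-like proteins.

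Of the 9 regulators, Rgs4 and Rgs7 were lower in old aortae and Rgs10 was higher, whereas the other 6 did not pass the test. Rgs7 fell to 0.702 of its young level and Rgs4 to 0.649, while Rgs10 rose 1.33-fold. Rgs5, by far the most abundant of the 9, did not pass the test. A call here is a Benjamini-Hochberg adjusted p below 0.05 in edgeR's quasi-likelihood test of the counts, adjusted over all 14614 genes tested. By that rule 3 of the 9 regulators were called (33.3%), against 11.5% of all genes tested. At an unadjusted p below 0.05 there were 4 of the 9, against 26.7% of all genes tested. The 1 regulator called higher compares with 6.48% of all genes and the 2 called lower with 4.99%. The median log2 fold change, old over young, was -0.07 over the 9 regulators and 0.0034 over all genes tested. In a whole vessel, fewer cells of a type and less RNA per cell cannot be told apart.

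Of the 9 regulators, 5 lie on chromosome 1. Rgs4 (chr1:169741477-169747642, minus strand) and Rgs5 (chr1:169655501-169695813, plus strand) are neighbours 45.7 kb apart with 0 protein-coding genes between them, and Rgs7 (chr1:175059087-175492500, minus strand) lies farther along the chromosome (GRCm38, GENCODE M21). The promoters of these 3 genes are shown because the neighbours Rgs4 and Rgs5 differed in level and in their change with age, and because Rgs7 was the regulator called under every analysis run. Each is the 250 bases before the RefSeq transcription start in GRCm38.p6, written 5′ to 3′ in the sense of the gene, at chr1:169747643-169747892 (minus strand) for Rgs4, chr1:169655251-169655500 (plus strand) for Rgs5 and chr1:175492546-175492795 (minus strand) for Rgs7. Capitals mark matches to the motifs searched.
Rgs4 promoter: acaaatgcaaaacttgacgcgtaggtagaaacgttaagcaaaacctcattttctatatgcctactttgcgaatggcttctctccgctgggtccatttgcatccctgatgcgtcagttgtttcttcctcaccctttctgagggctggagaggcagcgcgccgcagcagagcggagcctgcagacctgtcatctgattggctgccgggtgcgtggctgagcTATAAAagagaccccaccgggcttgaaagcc
Rgs5 promoter: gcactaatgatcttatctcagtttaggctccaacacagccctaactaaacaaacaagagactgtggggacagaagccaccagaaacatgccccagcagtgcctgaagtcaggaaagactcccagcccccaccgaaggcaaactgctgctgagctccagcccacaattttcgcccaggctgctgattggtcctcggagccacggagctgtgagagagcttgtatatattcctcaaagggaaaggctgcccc
Rgs7 promoter: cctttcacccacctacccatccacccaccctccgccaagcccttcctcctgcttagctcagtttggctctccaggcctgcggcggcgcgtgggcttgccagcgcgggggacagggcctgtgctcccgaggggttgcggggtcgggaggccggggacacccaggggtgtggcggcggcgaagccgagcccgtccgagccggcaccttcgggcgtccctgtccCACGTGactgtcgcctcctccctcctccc

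The motifs searched on both strands were TATAAA, the E-box CACGTG, the CArG box bound by serum response factor, the CRE TGACGTCA and the AP-1 element TGANTCA. The Rgs4 window held TATAAA 31 to 26 bases before the start, a motif found in 12.4% of all 32851 mouse promoter windows of this length. The Rgs7 window held CACGTG 29 to 24 bases before the start, which is in 6.02% of all windows. No searched motif was in the Rgs5 window. The search took only the exact letters TATAAA, and variants of them were not searched. The Rgs5 window holds the letters tatatat near the transcription start. The Rgs4 and Rgs5 windows both had a GC content of 53.6%, close to the median of 52.4% over all windows, whereas the Rgs7 window had 72.4%. The RefSeq start of Rgs7 was not found in a GENCODE transcript, and 8 of the 9 regulators had a RefSeq promoter. These matches are descriptions of the letters in the windows.

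The 10 libraries held 19640401 to 22886153 counted reads. Mitochondrial genes took 4.50% to 6.51% of the counts in 9 libraries and 11.0% in old replicate 2. The defining smooth muscle markers were high in both groups, with 390587 ± 31099 (SD, n = 5) normalized counts of Acta2 in the young aortae and 348817 ± 33917 in old ones (n = 5), and neither Acta2 nor Myh11 was called. Summed over 7 macrophage markers, the normalized counts were 7592 to 10185 in young and 10151 to 20642 in old aortae, with the highest sum in old replicate 3, and edgeR called 4 of the 7 markers higher. All 7 had a positive log2 fold change and an unadjusted edgeR p below 0.05, and DESeq2 called all 7. Of 8 endothelial markers 7 had a negative log2 fold change (median -0.66), 5 had an unadjusted edgeR p below 0.05, and edgeR called 1, Tek, and DESeq2 4, and their sums were 21117 to 35929 in young and 12182 to 24972 in old aortae. Of 22 immediate early genes, which respond within minutes to stimuli and to handling of tissue, 1 was called higher and 6 lower, and their sum was highest in young replicate 1. No marker list had a defining gene at 0 in all libraries.

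**Figure D1:**
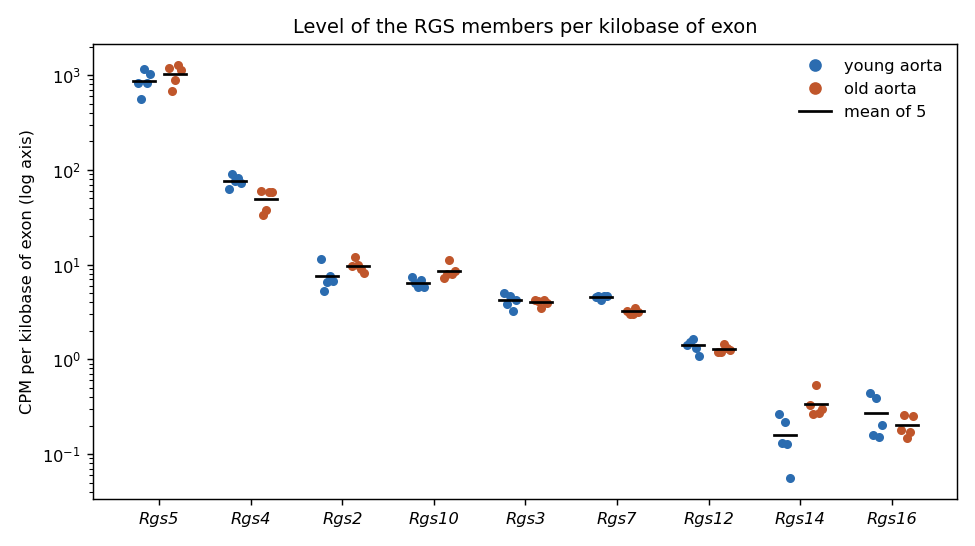
Level of each regulator in every aorta, as CPM per kilobase of exon on a log axis, with young and old aortae in separate colours. Rgs5 is highest, at 875 in young and 1039 in old aortae on average, and Rgs4 next at 76.1 and 49.4, whereas Rgs14 and Rgs16 lie below 1.

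Levels of different genes were compared only per length, as counts scaled to library size (CPM) and divided by the kilobases of exon. On that scale Rgs5 stood at 875 ± 226 in the young group and 1039 ± 243 in the old (SD, n = 5 each), the 28th highest of 14516 genes with a known length. Rgs4 followed with 76.1 ± 10.0 in young and 49.4 ± 13.0 in old aortae. Rgs2 and Rgs10 came next, at 7.54 and 6.44 in young and 9.71 and 8.58 in old aortae, and the ranges of these neighbours overlapped in both groups. Rgs7 and Rgs3 overlapped too, with Rgs7 at 4.56 and Rgs3 at 4.18 in young aortae and Rgs3 at 3.99 and Rgs7 at 3.20 in old ones. Rgs12 was lower at 1.40 and 1.28, clear of its neighbours in both groups. Rgs14 and Rgs16 were the lowest, at 0.160 and 0.270 in young aortae, where they overlapped, and at 0.341 and 0.202 in old aortae, where they did not. The RNA of Rgs5 thus made up 89.1% ± 3.52 of the summed level of the 9 regulators in young and 93.0% ± 0.771 in old aortae, and that of Rgs4 8.29% ± 3.05 and 4.41% ± 0.365.

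**Figure D2:**
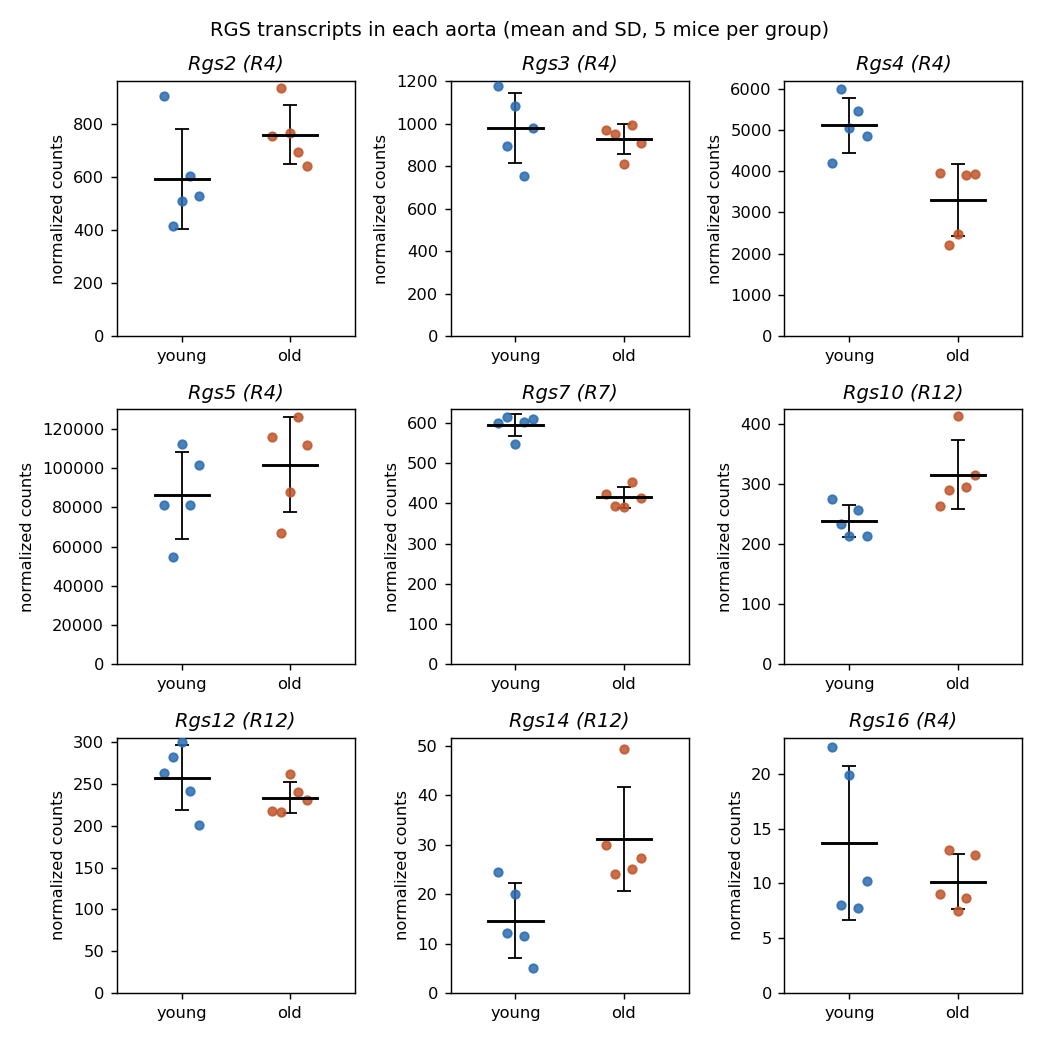
Normalized counts of the 9 regulators in each of 5 young and 5 old aortae, 1 panel per gene with its own axis, and the mean and SD of each group. The groups do not overlap for Rgs4 and Rgs7 and overlap for the other 7.

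Old aortae held less RNA of Rgs4, an R4 protein that acts on the Gi and Gq classes of alpha subunit. The young aortae, replicates 1 to 5, had 4208, 6000.4, 5048, 5456 and 4849 normalized counts, and the old ones 3958, 2209, 2488, 3914 and 3929.8. The groups did not overlap, which in either direction held for 9.92% of all genes tested. All 5 old aortae lay below all 5 young ones, and old replicates 2 and 3 lay well below the other old aortae. The means were 5112 ± 670.5 and 3300 ± 874 (SD, n = 5 each), so that the coefficient of variation was 13.1% among young and 26.5% among old mice. The log2 fold change was -0.62 (SE 0.17, 95% interval -1.01 to -0.24), with an edgeR Benjamini-Hochberg adjusted p of 0.0428, and the exact two-sided permutation p of the difference in means was 0.0079, the smallest that 5 against 5 can give. This call lay close to the threshold. By edgeR's adjusted p it was lost without young replicate 2 (0.0954), 3 (0.0703), 4 (0.0956) or 5 (0.0685) and without old replicate 3 (0.0830), and also with no filter on low counts (0.138). Old replicate 2 was the library with 11.0% mitochondrial counts, and without it the log2 fold change was -0.51 with an edgeR adjusted p of 0.0458. With old replicates 2 and 3 both left out, a choice made after the values were seen, the log2 fold change was -0.37 with an edgeR adjusted p of 0.0426.

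Rgs5, its neighbour on chromosome 1, is an R4 protein known as a marker of pericytes and arterial smooth muscle. Young aortae had 81062, 54557, 112467, 81454 and 101588 normalized counts of Rgs5, and old aortae 116055, 67109, 87837, 126298 and 111964. The groups overlapped widely, and the lowest library of each group was its replicate 2. The means were 86226 ± 22231 for the young and 101852 ± 24006 for the old mice (SD, n = 5 each), a log2 fold change of 0.25 (SE 0.21, 95% interval -0.21 to 0.70). Its edgeR Benjamini-Hochberg adjusted p was 0.494 and its exact permutation p 0.310. Among 9 pericyte markers 0 were called by edgeR or by DESeq2 and 1 had an unadjusted edgeR p below 0.05, and their summed normalized counts were 37225 to 45296 in young and 38107 to 45454 in old aortae.

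The number of Rgs5 counts per Rgs4 count separated the ages, as Rgs4 alone already did and Rgs5 alone did not. In young aortae it was 19.3, 9.09, 22.3, 14.9 and 20.9, and in old aortae 29.3, 30.4, 35.3, 32.3 and 28.5. The highest young ratio lay below the lowest old one, and the ratio spread more widely in young (17.3 ± 5.36) than in old aortae (31.2 ± 2.72). Old replicates 2 and 3, the lowest of their group in Rgs4, were also the lowest 2 old aortae in Rgs5, while the ratio of old replicate 3 was the highest and that of replicate 2 the median of the group. The ratio was chosen after the values were seen and is given without a test.

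**Figure D3:**
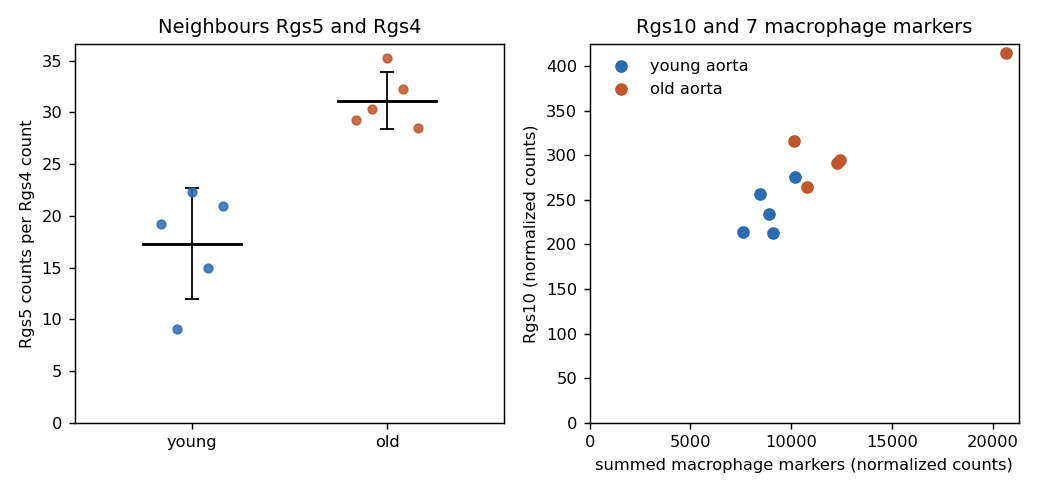
Left, Rgs5 counts per Rgs4 count in each aorta by age. Right, normalized counts of Rgs10 on the vertical axis against the summed normalized counts of 7 macrophage markers on the horizontal axis for the same 10 aortae; old replicate 3 is highest on both at 415 and 20642.

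Rgs2, an R4 protein with a preference for Gq whose loss raises blood pressure in mice, did not pass the test in all 10 aortae. Young aortae had 908, 416, 511, 603 and 529 normalized counts and old aortae 756, 936, 767, 694 and 641. Young replicate 1 lay above 4 of the 5 old aortae, whereas the other 4 young aortae lay below every old one. The means were 593 ± 188 and 759 ± 111 (SD, n = 5 each), the log2 fold change was 0.36 (SE 0.19, 95% interval -0.05 to 0.78), and the edgeR Benjamini-Hochberg adjusted p was 0.248. Without young replicate 1 the log2 fold change was 0.57 with an edgeR adjusted p of 0.00981, so the absence of a call rested on that library. Leaving it out also raised the share of all genes called, to 16.1% from 11.5%. Rgs2 is itself rapidly induced by stimuli. The 22 immediate early genes summed to 66380.0 normalized counts in young replicate 1 and to nearly as many, 65294, in young replicate 3, which had 511 counts of Rgs2. Young replicate 1 also had the highest sum of 6 adipocyte markers, 9012 normalized counts against 4502 or fewer in the other 9 aortae. The part of either list in the value was not tested.

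Rgs3 and Rgs16, the remaining R4 regulators, showed no call under any analysis run. Rgs3, which is transcribed from several start sites into long and short forms, ranged from 756 to 1181 normalized counts in young and from 813 to 993 in old aortae. Its log2 fold change was -0.07 (SE 0.11, 95% interval -0.30 to 0.16) with an edgeR Benjamini-Hochberg adjusted p of 0.735, and 11.4% of the 50-base windows of its exons are shared with the gene model Gm5763. Rgs16, an inducible regulator, was near the limit of detection, with 68 reads over the 5 young and 51 over the 5 old libraries. Its interval was correspondingly wide, a log2 fold change of -0.42 (95% interval -1.20 to 0.36, edgeR Benjamini-Hochberg adjusted p 0.503). An antisense gene, Gm28513, covers 10.1% of the exonic sequence of Rgs16, and how strand was used in the counting is not given in the sources used here.

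Rgs7, the R7 regulator known mostly from brain and retina, was lower in old aortae in the most uniform way of the 9. Young aortae had 600.1, 615, 547, 602 and 609.6 normalized counts and old aortae 423, 393, 392, 454 and 413. The lowest young aorta stood clear of the highest old one, and both groups were tight. The means were 595 ± 27.1 and 415 ± 25.3 (SD, n = 5 each). The log2 fold change was -0.51 (SE 0.06, 95% interval -0.65 to -0.37), the edgeR Benjamini-Hochberg adjusted p was 0.000292 and the exact two-sided permutation p was 0.0079. Its biological coefficient of variation, edgeR's estimate of the spread between mice beyond counting error, was 7.70% against a median of 11.4% over all genes tested and 19.4% for Rgs4. The call held in 17 other analyses without a replicate block, which changed the tool, scaling or filter or left out 1 library, with log2 fold changes from -0.54 to -0.48, and without old replicates 2 and 3 together, at -0.46.

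Since Rgs7 is known mostly from nervous tissue, markers of neurons are given beside it. Of 6 neuronal markers 2 were tested and 1, Tubb3, was called higher, and the sums were 185 to 373 normalized counts in young and 203 to 326 in old aortae. The defining neuronal markers were near 0, with 0.404 normalized counts of Snap25 on average in young and 2.59 in old aortae, and 8.00 and 4.54 of Rbfox3. Most of the sum was Stmn2, with a log2 fold change of -0.33 that did not pass the test, whereas that of Tubb3 was positive. The part of neuronal RNA in the Rgs7 value was not tested.

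Of the genes whose proteins work with Rgs7, Rgs7bp and Gnao1 were higher in old aortae and Gnb5 was not called. Rgs7bp, the membrane anchor of the R7 proteins, had 1977, 1924, 2282, 2050.1 and 2121 normalized counts across the young aortae and 2783, 2639, 2756, 2875 and 3144 across the old ones. Every old aorta lay above every young one, with a log2 fold change of 0.46 (SE 0.06) and an edgeR Benjamini-Hochberg adjusted p of 0.000556. Gnb5, the obligate G beta partner, had 313 ± 42.5 and 287 ± 27.5 normalized counts (SD, n = 5 each), and its log2 fold change of -0.12 (SE 0.10) did not pass the test. Gnao1, an alpha subunit on which R7 proteins act, was higher in old aortae (1354 ± 123 and 1738 ± 163 normalized counts, log2 fold change 0.37, edgeR Benjamini-Hochberg adjusted p 0.0091). Rgs6, the closest relative of Rgs7 in the R7 subfamily, was itself lower, at 103 ± 11.9 in young and 73.9 ± 4.87 in old aortae without overlap (log2 fold change -0.47, SE 0.13, edgeR Benjamini-Hochberg adjusted p 0.0288). Of the 4 R7 genes, 3 were tested and 2 called lower, where 4.99% of all genes were called lower. The R7 genes did not all change in the same direction. Rgs11, the other tested R7 gene, was not called but had a positive log2 fold change of 0.60 (SE 0.23, unadjusted edgeR p 0.0221). Rgs9 was not tested, and its few counts were higher on average in old aortae, with overlap (1.59 ± 0.855 and 6.07 ± 3.30 normalized counts).

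Rgs10, a small R12 protein best known from macrophages and microglia, was higher in old aortae. Young aortae had 276, 234, 213, 257 and 214 normalized counts and old aortae 265, 291, 415, 295 and 316. The groups overlapped by a single pair, since old replicate 1 lay below young replicate 1, and old replicate 3 was the highest of all. The means were 239 ± 27.3 and 316 ± 58.0 (SD, n = 5 each), a log2 fold change of 0.41 (SE 0.12, 95% interval 0.15 to 0.68) with an edgeR Benjamini-Hochberg adjusted p of 0.0460 and an exact two-sided permutation p of 0.0159. This call was the least stable of the 3. By edgeR's adjusted p it was lost without young replicate 2 (0.0964), 3 (0.0960), 4 (0.0704) or 5 (0.1096) and without old replicate 2 (0.0554), 3 (0.0926), 4 (0.0613) or 5 (0.0850), and limma-voom gave an adjusted p of 0.0540. Without old replicate 3 the log2 fold change was 0.29. Old replicate 3 also had the highest summed macrophage markers, 20642 normalized counts, and the 4 markers that edgeR called higher were Adgre1, Cd68, C1qa and C1qb. The part of the macrophage markers in the Rgs10 value was not tested.

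Rgs14, an R12 scaffold known from the hippocampus, was rare in the aorta, with 73 reads over the 5 young and 159 over the 5 old libraries. Young aortae had 24.5, 12.1, 19.9, 11.6 and 5.12 normalized counts and old aortae 30.0, 24.0, 49.4, 25.1 and 27.2. Young replicate 1 overlapped with old replicate 2 and the rest were apart. The means were 14.7 ± 7.62 and 31.1 ± 10.5 (SD, n = 5 each), a log2 fold change of 1.09 with a 95% interval of 0.33 to 1.85, and the edgeR Benjamini-Hochberg adjusted p of 0.0628 did not reach the threshold. It did without young replicate 1 (edgeR adjusted p 0.0230), with no filter on low counts (0.0429), in DESeq2 (0.0332) and in limma-voom (0.0492). In the same order, these settings called 16.1%, 5.72%, 13.6% and 11.6% of all genes. Old replicate 3, the highest in Rgs14, was again the library with the highest macrophage sum, and it had the highest B cell (379) and T cell (171) marker sums as well, whose part in the value was not tested.

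Rgs12, the largest R12 protein, ranged from 201 to 300.1 normalized counts in young and from 217 to 262 in old aortae. Its log2 fold change was -0.13 (SE 0.11, 95% interval -0.37 to 0.11) with an edgeR Benjamini-Hochberg adjusted p of 0.490. The antisense gene Gm43791 lies over 5.50% of its exonic sequence. All 3 R12 genes were tested, and 1, Rgs10, was called.

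**Figure D4:**
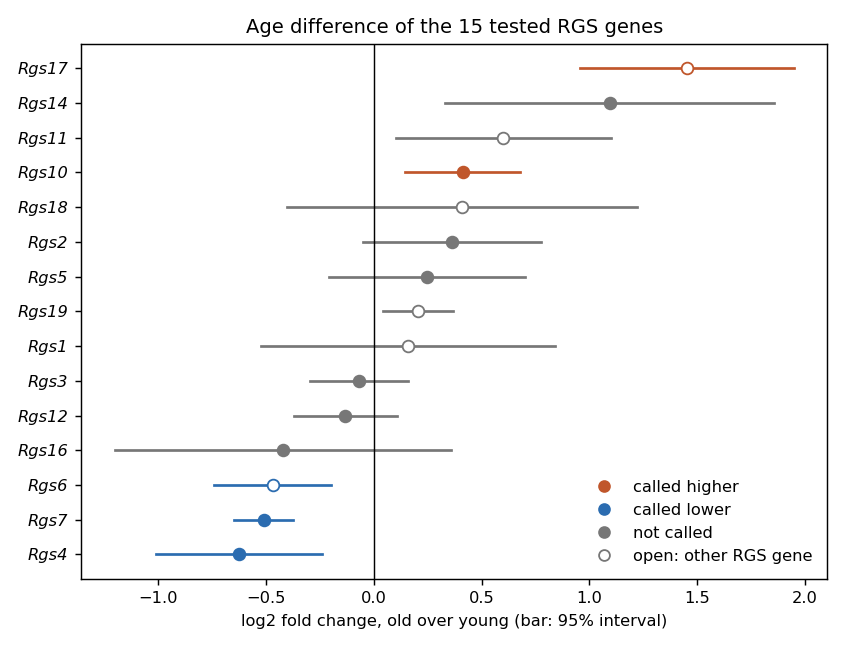
Log2 fold change, old over young, with its 95% interval for the 15 RGS genes that passed the filter on low counts, the 9 regulators and 6 others. Intervals that lie wholly below 0 and were called belong to Rgs4, Rgs6 and Rgs7, and called ones above 0 to Rgs10 and Rgs17.

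Among the 12 RGS genes outside the 9, 6 were tested and 2 were called, where 11.5% of all genes tested were called. Rgs11 and Rgs19 were not called but had positive log2 fold changes (0.60 and 0.20) with unadjusted edgeR p of 0.0221 and 0.0177. The groups did not overlap for Rgs19. Of all genes tested, 26.7% had an unadjusted p below 0.05 and 9.92% had groups without overlap. Rgs17, a regulator of the RZ subfamily that acts on Gi and Gz, had 165, 154, 236, 337 and 295 normalized counts across the young aortae and 741, 766, 625, 454 and 647 across the old ones. Its groups did not overlap, and the log2 fold change was 1.45 (SE 0.22) with an edgeR Benjamini-Hochberg adjusted p of 0.00249, larger in size than that of any of the 9 regulators. The other called gene was Rgs6, given above. Among 11 tested genes of a list of other RGS and RGS-domain genes the median log2 fold change was 0.03, with 1 called higher and 1 lower. The most abundant of that list per length, Axin1 (log2 fold change -0.05) and Snx13 (-0.02), did not pass the test.

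Genes of the other signalling steps are read against the 11.5% of all genes called. Of 14 tested alpha subunit genes Gnao1 was called higher and Gnaq, an alpha subunit that couples contractile receptors to phospholipase C, lower. Gnaq had 2237 ± 71.9 normalized counts in the young group and 1900 ± 127 in the old (SD, n = 5 each), a log2 fold change of -0.23 (SE 0.06) with an edgeR Benjamini-Hochberg adjusted p of 0.0190 and no overlap. Gna11, also of the Gq class, was not called (log2 fold change 0.03, SE 0.05, edgeR Benjamini-Hochberg adjusted p 0.747). Per length Gna11 stood at 37.9 in young and 38.8 in old aortae, and Gnaq at 16.7 and 14.2. The most abundant alpha subunits, Gnai2 (log2 fold change 0.08) and Gnas (-0.09), did not pass the test. Of 11 tested beta and gamma subunits edgeR called 0, with 2 at an unadjusted p below 0.05, and DESeq2 called 1. Of 5 tested RGS partners Rgs7bp was called, and Gpsm2, the most abundant of them, had a log2 fold change of -0.02. Of 7 tested receptor kinases and arrestins, which desensitise receptors by another route, Arrb2 was called higher (306 ± 18.7 and 412 ± 61.1 normalized counts, log2 fold change 0.43, edgeR Benjamini-Hochberg adjusted p 0.0133), while Grk2 and Grk5 had log2 fold changes of 0.04 and -0.0032.

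For each called regulator the 3 tested genes with the most similar pattern over the 10 aortae were listed, by the mean absolute difference of standardised log2 CPM. For Rgs4 these were Rev3l (0.189), Hey2 (0.234) and Prkci (0.249), against a median of 1.08 over all genes. For Rgs7 they were Gpc6 (0.173), Antxr1 (0.174) and Dchs1 (0.178), against a median of 1.10. For Rgs10 they were Pf4 (0.185), Sema4a (0.212) and C1qa (0.219), against a median of 1.08. Of these 9 genes C1qa was on the macrophage marker list.

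**Figure D5:**
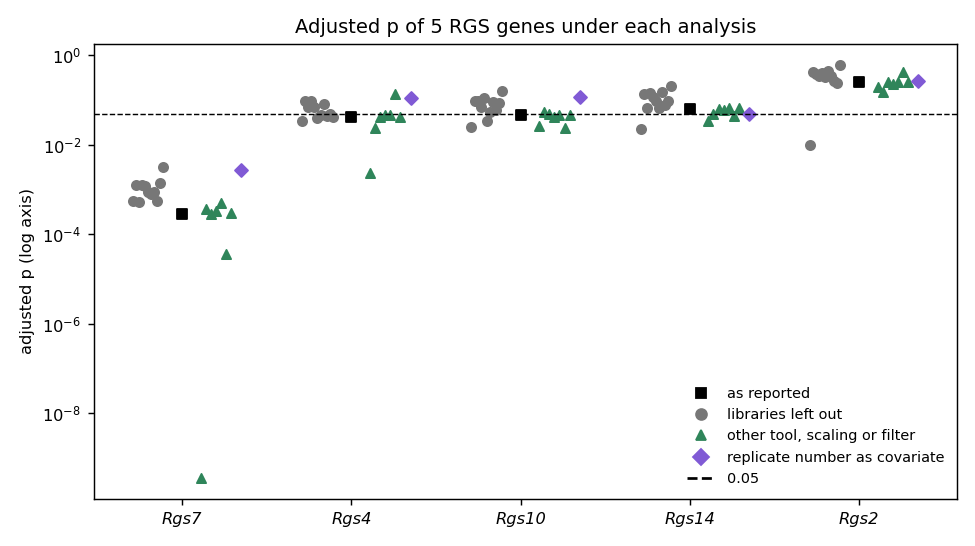
Adjusted p of Rgs7, Rgs4, Rgs10, Rgs14 and Rgs2 on a log axis in each analysis, with the threshold of 0.05 as a line. Rgs7 lies below the line throughout, Rgs4, Rgs10 and Rgs14 lie on both sides of it, and Rgs2 lies below it in 1 analysis, without young replicate 1.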

How the data were processed

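Total RNA was extracted from 10 aortae with the miRNeasy kit, and poly(A) libraries were made with a stranded Illumina TruSeq kit, which selects polyadenylated RNA only. The authors trimmed reads with fastp 0.20.0, aligned them to GRCm38 with STAR 2.7.0f and deposited unnormalized counts per gene from featureCounts (Subread 1.6.4). How strand and reads with several alignments were treated is not given in the sources used here.

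Here, counts were tested with edgeR 4.0.16 (R 4.3.3; TMM scaling, filterByExpr at its defaults, robust quasi-likelihood F test), old against young, with Benjamini-Hochberg adjustment over 14614 genes. Normalized counts are counts divided by DESeq2 1.42.0 size factors. Levels per length use TMM-scaled CPM and the union of exons in GENCODE M21. DESeq2, limma-voom (limma 3.58.1), other scalings and filters, a replicate block and leaving out each library were alternatives. The scripts were tested on simulated data. Replicates are separate mice, and 5 per group and 19640401 to 22886153 counted reads per library set the precision. The members and lists were chosen with earlier results of these data known. Named genes were the 9 members, up to 6 called genes and the 2 most abundant genes of each list, and 3 nearest patterns. Rgs9, Rgs11, Rgs19, Gna11, Adora2a and Ptgfr were named in addition, after the values were seen.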

Additional observations from a re-analysis of the deposited data

Results flagged for a closer look

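In 18 groups of 5 aortae, 2 groups from each of the 9 regulators, a library was looked for whose gap to its nearest neighbour took up more of the group's range than Dixon's 95% critical value, a criterion that chance alone meets in about 1 in 20 groups. There were 2 such libraries. Young replicate 3 had 547 normalized counts of Rgs7 against 600.1 to 615 in the other 4 young aortae, a gap of 0.781 of the range, and it still lay above every old aorta. Old replicate 3 had 49.4 normalized counts of Rgs14 against 24.0 to 30.0 in the other 4 old aortae, a gap of 0.764 of the range. Without old replicate 3 the log2 fold change of Rgs14 was 0.86 with an edgeR adjusted p of 0.152.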

How the results depend on the processing

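The members called higher numbered 1 with edgeR, 2 with DESeq2, 2 with no filter on low counts, 0 to 3 when 1 library was left out, and 0 without old replicates 2 and 3 together. Those called lower numbered 2 with edgeR, 1 with no filter, 1 with the replicate block, and 1 to 2 when 1 library was left out. Over all genes 1676 were called, 1132 to 2367 when 1 library was left out and 954 without old replicates 2 and 3 together. The causes were not tested. Rgs3, which was not called, changed sign without young replicate 1, and its log2 fold changes with 1 library left out were -0.15 to 0.0057. Whether the replicate numbers pair the mice is not given in the sources used here. Same-numbered deviations from the group means correlated at -0.30 to 0.13, and 2 of 5 numbers matched best with their own. These 5 values are too few to settle it. With the number as a block the count over all genes was 1261, and the edgeR adjusted p was 0.0027 for Rgs7, 0.1096 for Rgs4, 0.115 for Rgs10 and 0.0478 for Rgs14. Depth limits Rgs14 and Rgs16, which had 51 to 159 reads per group.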

Other observations

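The receptors and effectors that RGS proteins act between were followed as lists. Of 43 tested vasoactive receptor genes 5 were called higher and 3 lower in old aortae, with a median log2 fold change of -0.05, where 6.48% of all genes were called higher and 4.99% lower. At an unadjusted p below 0.05 there were 13, and DESeq2 called 11. Ptgir, the prostacyclin receptor, had 134 ± 16.7 normalized counts in the young group and 285 ± 62.1 in the old (SD, n = 5 each; log2 fold change 1.10, edgeR Benjamini-Hochberg adjusted p 0.000459). The prostaglandin E receptor Ptger1 (log2 fold change 0.83), the UDP-glucose receptor P2ry14 (1.56) and the bradykinin receptor Bdkrb2 (0.65) were also called higher. Calcrl, the shared subunit of the CGRP and adrenomedullin receptors, was lower with 1272 ± 219 and 849 ± 96.1 normalized counts (log2 fold change -0.58, edgeR Benjamini-Hochberg adjusted p 0.0066), as was the protease-activated receptor F2rl1 (-0.56). The remaining called receptors were Adora2a, higher (0.65, edgeR Benjamini-Hochberg adjusted p 0.0350), and the prostanoid receptor Ptgfr, lower without overlap (-0.41, 0.0404). The most abundant receptors, Npy1r and F2r, had log2 fold changes of 0.10 and -0.22 and did not pass the test.

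Of 28 tested effectors of G proteins 2 were called higher and 0 lower, with a median log2 fold change of 0.02. Adcy1, an adenylyl cyclase, had 159 ± 17.7 normalized counts in the young group and 348 ± 59.6 in the old (SD, n = 5 each; log2 fold change 1.13, edgeR Benjamini-Hochberg adjusted p 0.000137). Plcb2, a phospholipase C of blood cells, had 7.86 ± 3.40 and 25.9 ± 15.8 (log2 fold change 1.72, edgeR Benjamini-Hochberg adjusted p 0.0250). Adcy5 and Prkar1a, the most abundant of the list, had log2 fold changes of 0.01 and 0.03. Among the remaining marker lists, 1 of 8 smooth muscle and 2 of 2 tested T cell markers were called higher. Of 7 fibroblast markers 1 was called higher and 1 lower by edgeR, 5 had an unadjusted edgeR p below 0.05, and DESeq2 called 3. Of 6 tested striated muscle markers 2 were called higher. They were the only 2 of that list with a positive log2 fold change, and its median was -0.50. At an unadjusted edgeR p below 0.05 there were 4 striated muscle markers, and DESeq2 called 5 of the 8 listed. Of the tested B cell, Schwann cell, adipocyte and red blood cell markers edgeR called 0. In these lists 0, 1, 3 and 0 had an unadjusted edgeR p below 0.05, and DESeq2 called 0, 0, 1 and 0.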
